A study of Mus musculus with 21 samples.

Results

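Natural killer cell receptors were followed in mouse liver tumours treated with checkpoint antibodies. The genes are Klrd1, Klrc1, Klrc2, Klrk1, Klre1, Klrg1, Klrb1c and Ncr1, a list of 8 of the 55487 gene identifiers in the count table. They were chosen by symbol, from a list of receptors known from NK cells, and each symbol matched 1 identifier in the GRCm38 annotation. All 8 passed the filter on low counts, which left 19061 genes to be tested.

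Messenger RNA was sequenced from tumours of Hepa1-6, a mouse hepatoma cell line, grown in C57BL/6 mice. The 4 groups were WT mice given isotype antibody (5 libraries), WT mice given anti-PD1 plus anti-CTLA4 (5), B-cell depleted mice given isotype antibody (6) and B-cell depleted mice given both checkpoint antibodies (5). The pair of checkpoint antibodies is called the combination here. The series asks what B cells contribute when liver cancer is treated with such antibodies. All groups carried the same tumour line on the same mouse strain. The labels give neither the way B cells were removed nor the age or sex of the mice, and they do not tie libraries to animals. The p-values therefore measure the spread between these libraries, which may in part be technical.

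NK cells are innate lymphocytes that kill tumour cells without a rearranged antigen receptor, and they weigh signals from inhibitory receptors for MHC class I against signals from activating receptors for stress-induced ligands. Most of the receptors studied here are C-type lectin-like proteins encoded side by side in the NK gene complex, and Ncr1 is an immunoglobulin-family receptor encoded elsewhere. Several of them, NKG2D and the CD94/NKG2 receptors above all, are also made by activated CD8 T cells, whereas Ncr1 is largely restricted to NK cells and other innate lymphocytes.

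Klrd1 encodes CD94, which pairs with NKG2A (Klrc1) into an inhibitory receptor or with NKG2C (Klrc2) into an activating one. Klrk1 encodes the activating receptor NKG2D. Klre1 encodes a lectin-like receptor that pairs with the products of Klri1 or Klri2, Klrg1 an inhibitory receptor for cadherins, Klrb1c the NK1.1 antigen of C57BL/6 mice and Ncr1 the activating receptor NKp46. On GRCm38, 7 of the 8 genes lie on chromosome 6. Klre1 (start 129577905, end 129585827, plus strand), Klrd1 (129591782 to 129598775, plus), Klrk1 (129610323 to 129623864, minus), Klrc2 (129647496 to 129660689, minus) and Klrc1 (129666015 to 129678973, minus) are neighbours. Klrb1c (128778485 to 128789215, minus) and Klrg1 (122270596 to 122282882, minus) lie farther off on the same chromosome, and Ncr1 is on chromosome 7 (4337724 to 4345164, plus). All values are per gene, without a split by transcript, and all 8 genes are protein coding.

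Promoter sequences are shown for 4 members because Klrc1, Klrc2 and Klrk1 moved together over the 21 libraries (pairwise Pearson r of log2 CPM from 0.886 to 0.963) and Ncr1 followed them less closely (0.561 to 0.814). Within groups these ranges overlapped, at 0.807 to 0.893 among the first genes and 0.636 to 0.848 with Ncr1. The windows are 300 bases around the annotated start, from RefSeq on GRCm38.p6, read 5′ to 3′ on the strand of the gene, and 6 of the 8 members matched an entry. Capitals mark TGTGGT or its reverse complement, the core letters bound by Runx factors, which act in NK and T cells.
Klrc1 promoter, chr6:129678924-129679223, minus strand: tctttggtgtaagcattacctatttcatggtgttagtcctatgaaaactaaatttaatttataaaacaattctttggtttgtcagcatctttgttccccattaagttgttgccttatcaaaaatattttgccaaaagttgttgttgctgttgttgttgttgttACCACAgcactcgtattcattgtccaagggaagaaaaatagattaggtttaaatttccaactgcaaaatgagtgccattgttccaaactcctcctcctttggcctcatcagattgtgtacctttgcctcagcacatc
Klrc2 promoter, chr6:129660547-129660846, minus strand: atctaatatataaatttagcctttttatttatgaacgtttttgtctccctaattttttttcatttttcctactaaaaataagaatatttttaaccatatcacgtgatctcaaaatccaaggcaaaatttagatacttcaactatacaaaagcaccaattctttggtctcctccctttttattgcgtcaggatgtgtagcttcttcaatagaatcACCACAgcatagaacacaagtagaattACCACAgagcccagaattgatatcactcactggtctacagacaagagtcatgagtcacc
Klrk1 promoter, chr6:129623815-129624114, minus strand: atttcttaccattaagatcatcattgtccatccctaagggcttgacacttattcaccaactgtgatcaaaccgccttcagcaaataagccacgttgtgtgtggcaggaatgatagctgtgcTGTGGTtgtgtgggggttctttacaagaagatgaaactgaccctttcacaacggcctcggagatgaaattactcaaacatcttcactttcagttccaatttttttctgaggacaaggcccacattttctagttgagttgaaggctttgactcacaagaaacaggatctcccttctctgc
Ncr1 promoter, chr7:4337465-4337764, plus strand: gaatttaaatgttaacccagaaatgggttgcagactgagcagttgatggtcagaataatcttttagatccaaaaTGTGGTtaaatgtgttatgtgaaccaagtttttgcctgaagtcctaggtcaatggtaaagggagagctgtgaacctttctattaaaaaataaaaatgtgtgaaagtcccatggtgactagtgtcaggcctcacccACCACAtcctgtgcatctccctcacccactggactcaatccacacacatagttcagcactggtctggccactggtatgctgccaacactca

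The Runx letters, searched on both strands, were present in 6 of 6 member promoters and in 16.9% of 27025 promoters of the same length. This motif was picked for display after the matches had been seen. The Ets letters GGAAGT were present in 1 member promoter, that of Klrb1c, and in 24.1% of all promoters. The AP-1 letters TGANTCA were in 2 member promoters, those of Klrk1 and Klrc2, and in 7.9% of all. The T-box letters TCACACC (4.0% of all promoters) and the STAT letters TTCNNNGAA (8.5% of all) were in none of the 6 windows. A match is a description of letters, and promoters of neighbouring, related genes are not independent of each other.

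Library totals ran from 9.52 to 19.17 M counts. Levels are given as CPM, the counts of a gene per M counts of its library, and 1 CPM stood for 9.52 counts in the shallowest library. Klrg1, Ncr1 and Klrb1c had as few as 3, 3 and 4 counts in a library and are the least precise members, whereas Klrk1, Klrc1 and Klrd1 never had fewer than 99, 107 and 62. The tumours held clear T-cell, macrophage and hepatoma transcripts, and markers of other cells moved with the groups. The summed level of 12 T-cell markers was 100.4 to 200.5 CPM in WT isotype, 463 to 739 in WT combination, 72.0 to 253.8 in B-depleted isotype and 277 to 390.5 in B-depleted combination. The summed level of 4 Y-linked genes moved the same way, at 47.6 to 79.2, 134.7 to 250.5, 46.3 to 118.9 and 85.9 to 168.8 CPM. That of 6 hepatocyte and hepatoma markers moved the other way, with medians of 2757, 468, 2521 and 1900 CPM. Which cells the Y-linked transcripts came from was not tested. A fit with the Y-linked level as covariate therefore cannot separate it from the levels of these cell markers. In bulk tumours, fewer cells of a type and less RNA per cell cannot be told apart.

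The first principal component held 50.3% of the variance. Some libraries scored lowest in their group, on the side of the WT combination libraries (-77.2 to -20.5). WT isotype replicates 1 and 2 scored -5 and 0.6 against 19.1 to 46.8 in the other replicates of their group. B-depleted isotype replicates 3 and 5 scored -3.3 and 0.6 against 12.2 to 54.2, and B-depleted combination replicate 5 scored -22.7 against 1.9 to 30.5. The steps from 24.2 to 46.8 in WT isotype and from 12.2 to 37.3 in B-depleted isotype were wider. In the isotype groups the named libraries are thus the low end of spread-out scores and not a separate set. For each comparison the values without these libraries are given where they move a result. The B-cell gene Ms4a1 was at 0 to 2 counts in the 6 B-depleted isotype libraries and reached 22 counts in the B-depleted combination group, against 15 to 94 counts in WT combination.

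Per kilobase of exon, Klrd1 and Klrc1 were the most abundant members in every group. This order depends on the annotated exonic length, which was 1281 bases for Klrd1, 1984 for Klrc1, 7183 for Klrk1 and 5812 for Klrc2. In CPM, without division by length, Klrk1 had the highest mean in every group. Its mean was 17.4 CPM in WT isotype against 10.1 for Klrc1 and 8.07 for Klrd1, and 53.6 against 42.1 and 26.9 in WT combination. In B-depleted combination Klrk1 (26.85 ± 3.68 CPM) and Klrc1 (26.04 ± 3.15) did not differ beyond their spread. In WT isotype tumours Klrd1 was at 6.30 ± 1.61 and Klrc1 at 5.09 ± 1.20 CPM per kilobase (SD, n = 5), and these neighbours in the order overlap in their spread. Klrk1 followed at 2.42 ± 1.10 CPM per kilobase, then Klrg1 (1.30 ± 0.703) and Ncr1 (1.13 ± 1.19), which do not differ beyond their spread. Klre1 (0.553 ± 0.168), Klrc2 (0.531 ± 0.210) and Klrb1c (0.5002 ± 0.450) were lowest and lay within each other's SD. In WT combination tumours Klrc1 (21.2 ± 4.57) and Klrd1 (21.01 ± 4.70) again led per kilobase, with Klrk1 at 7.46 ± 1.81 CPM per kilobase. The inhibitory partner Klrc1 was thus well above the activating partner Klrc2 (2.50 ± 0.725 in WT combination) on this scale. Klrc1 and Klrc2 are close copies, and how reads that fit both were counted is not given in the sources used here, so the split between them is uncertain.

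In WT tumours the combination raised the CD94/NKG2 receptors, NKG2D, Klre1 and Klrb1c by edgeR, while Klrg1 and Ncr1 did not pass that test. Of the 8 members, 6 were called higher and 0 lower by edgeR at an adjusted p under 0.05, in a comparison in which 25.0% of all genes tested were called higher and 50.0% in either direction. The median log2 fold change of the members was 1.71, beside -0.00086 over all genes tested. In 5 members every combination library lay above every isotype library, which 15.0% of all genes tested also showed.

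CD94 and its partners rose together. Klrd1 was at 7.34, 10.8, 6.17, 6.36 and 9.71 CPM in WT isotype replicates 1 to 5 and at 22.8, 27.7, 19.4, 34.7 and 30.04 CPM in WT combination. The groups did not overlap, and the mean went from 8.07 ± 2.07 to 26.9 ± 6.02 CPM (log2 fold change 1.76 ± 0.24 SE, edgeR adjusted p = 5.97e-05). Klrc1, the inhibitory NKG2A chain, was at 9.22, 11.2, 6.53, 10.7 and 12.9 CPM under isotype and 34.5, 45.7, 30.7, 48.3 and 51.5 CPM under the combination. Its groups did not overlap either, and its change was 2.09 ± 0.22 (edgeR adjusted p = 1.33e-05). Klrc2, the activating NKG2C chain, was at 2.71, 4.26, 1.47, 2.63 and 4.36 CPM under isotype and 10.2, 16.9, 9.69, 18.2 and 17.7 CPM under the combination. The lowest combination library of Klrc2 was above the highest isotype library, with a change of 2.26 ± 0.34 (edgeR adjusted p = 9.77e-05).

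NKG2D and Klre1 also rose in each combination library above all isotype libraries. Klrk1 was at 22.1, 27.8, 8.35, 11.2 and 17.4 CPM under isotype, where replicates 1 and 2 were the highest. Under the combination it was at 44.0, 69.85, 38.7, 63.5 and 52.0 CPM, a change of 1.65 ± 0.37 (edgeR adjusted p = 0.00144). Klre1 went from 1.93 ± 0.588 CPM (range 1.29 to 2.65) to 6.65 ± 1.73 CPM (range 4.50 to 9.02), a change of 1.81 ± 0.29 (edgeR adjusted p = 0.000136). The Klrk1 and Klre1 calls held in 21 of 21 refits that each left out 1 library, as did those of Klrd1, Klrc1 and Klrc2.

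Ncr1 and Klrb1c varied widely among the WT isotype libraries. Ncr1 was at 2.26, 4.66, 0.176, 0.344 and 1.27 CPM in WT isotype and at 1.91, 5.90, 2.08, 6.64 and 3.45 CPM in WT combination. Isotype replicates 1 and 2 lay within the range of the combination libraries, and the change of 1.24 ± 0.66 did not pass (edgeR adjusted p = 0.122). Those 2 libraries hold the highest isotype values of Ncr1, so leaving them out enlarges the change by construction. Without both the change was 2.74 ± 0.74 (edgeR adjusted p = 0.00589), and without replicate 2 alone the edgeR adjusted p of Ncr1 was 0.0214. Neither value is a test of the rise. On all 21 libraries limma voom called Ncr1 higher (1.83, limma voom adjusted p = 0.0235), and DESeq2 did not (1.23, DESeq2 adjusted p = 0.110). Klrb1c was at 1.99, 3.59, 0.470, 0.859 and 0.496 CPM under isotype and 2.14, 5.46, 3.33, 5.81 and 3.45 CPM under the combination. Its groups overlapped through isotype replicate 2, and its change of 1.48 ± 0.58 passed (edgeR adjusted p = 0.0400) but was lost in 6 of 21 refits without 1 library, with adjusted p up to 0.0985. These were the refits without WT isotype replicate 3, 4 or 5 or without WT combination replicate 2, 4 or 5. Klrg1 was at 1.84 ± 0.995 CPM (range 1.03 to 3.20) under isotype and 2.03 ± 0.627 CPM (range 1.499 to 3.11) under the combination, with overlapping groups and a log2 difference of 0.16 ± 0.45 (edgeR adjusted p = 0.786).

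When the summed Y-linked level was added as a covariate, 1 of the 6 calls remained, that of Klrc1 at 1.30 ± 0.28 (edgeR adjusted p = 0.0455), and 77 genes in all were called in place of 9529. Y-linked level and treatment ran nearly in parallel in WT tumours, as the ranges above show, and their parts in the result cannot be told apart.

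**Figure D1:**
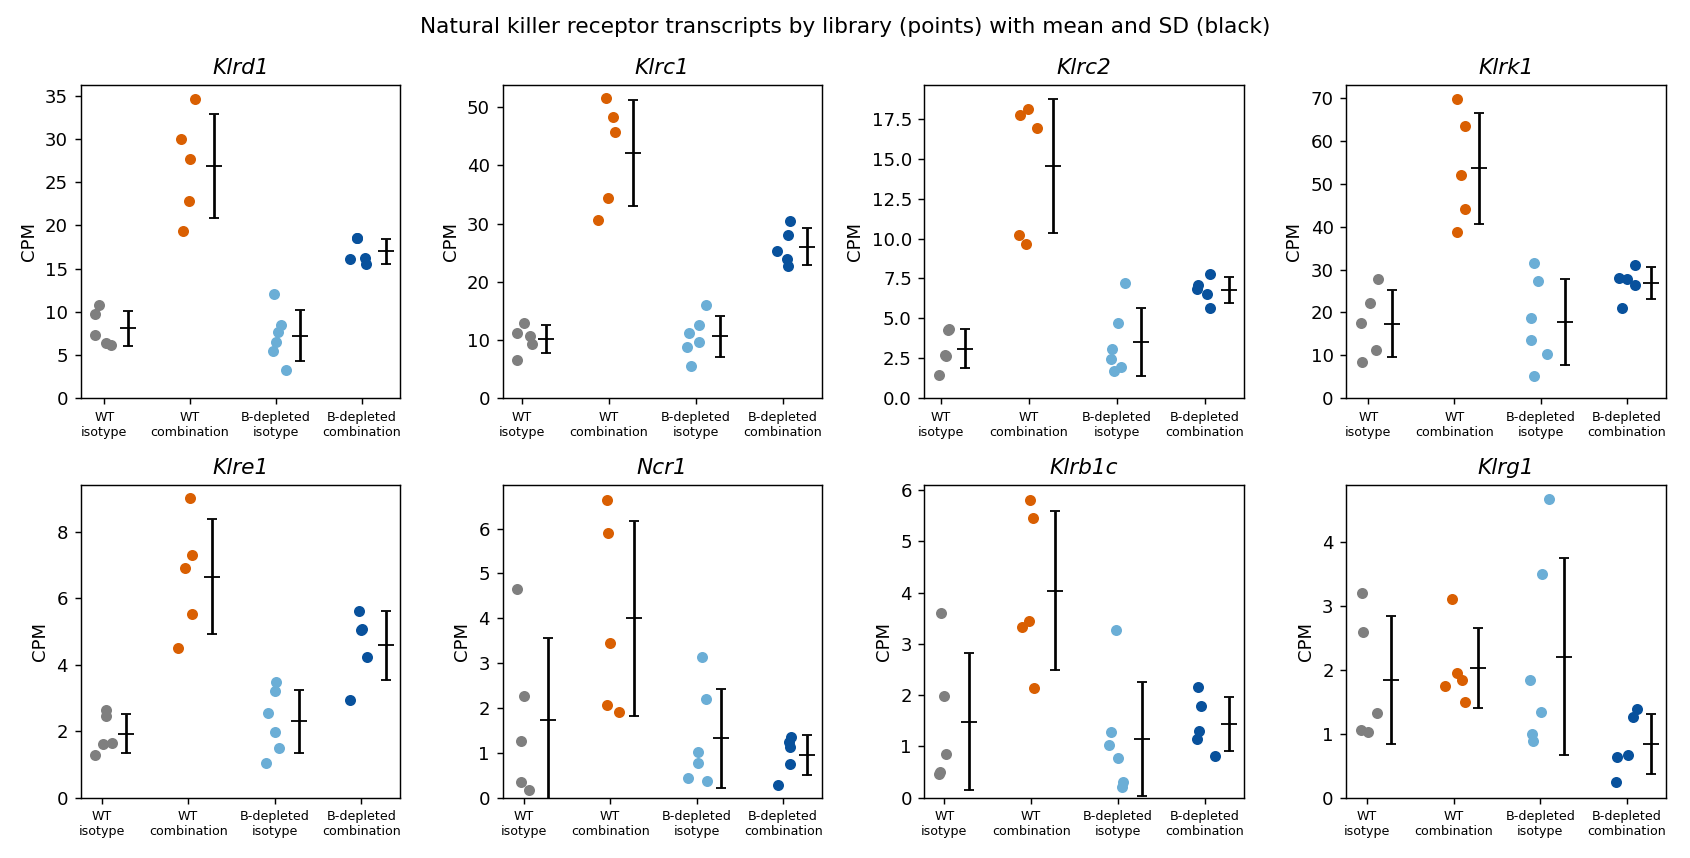
CPM of the 8 receptor genes in each of the 21 libraries, 1 panel per gene with its own linear vertical axis, by group; points are libraries and bars are means with SD. Klrd1, Klrc1, Klrc2, Klrk1 and Klre1 in WT combination sit above all WT isotype libraries, while Ncr1, Klrb1c and Klrg1 overlap, and the lower end of the SD bar of Ncr1 in WT isotype is drawn only to 0.

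In B-depleted tumours the combination raised CD94 and NKG2A, and the other receptors did not pass the test. Of the 8 members, 2 were called higher and 0 lower by edgeR, where 0.304% of all genes tested were called higher and 0.0367% lower. The median log2 fold change of the members was 0.81, beside 0.016 over all genes. In 2 members, the same Klrd1 and Klrc1, the groups did not overlap, which 1.14% of all genes showed in that direction. At an unadjusted p under 0.05 there were 5 members: these 2, Klrc2 and Klre1 on the higher side and Klrg1 on the lower.

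Klrd1 in B-depleted isotype had a lowest value of 3.235, a median of 7.11 and a highest of 12.1 CPM. In B-depleted combination it was at 18.6, 16.2, 15.6, 18.5 and 16.1 CPM, all above the isotype libraries, with a change of 1.26 ± 0.23 (edgeR adjusted p = 0.0193). The call was lost without B-depleted isotype replicate 1 or 2 or B-depleted combination replicate 1 or 5, with adjusted p up to 0.0699. Klrc1 had a lowest value of 5.58, a median of 10.4 and a highest of 15.9 CPM under isotype and 28.04, 22.65, 25.3, 30.4 and 23.85 CPM under the combination. The groups did not overlap, and the change of 1.32 ± 0.20 (edgeR adjusted p = 0.0134) passed in 21 of 21 refits without 1 library, at most at 0.0492. With the Y-linked covariate Klrd1 just missed the threshold (1.01 ± 0.21, edgeR adjusted p = 0.0506). With only the 2 groups compared in the fit, neither gene passed, and 6 genes in all were called in place of 65.

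The other members had overlapping groups in B-depleted tumours. Klrc2 was at 1.67, 2.76 and 7.24 CPM (lowest, median, highest) under isotype and at 6.51, 7.09, 6.85, 7.80 and 5.64 CPM under the combination. Its difference was 0.99 ± 0.32 (edgeR adjusted p = 0.176), and 1 isotype library, replicate 3, reached the range of the combination. Without that replicate Klrc2 passed (edgeR adjusted p = 0.0339). Klre1 was at 1.04, 2.28 and 3.48 CPM under isotype and 5.04, 5.08, 4.24, 5.61 and 2.93 CPM under the combination (1.02 ± 0.27, edgeR adjusted p = 0.101). Only its combination replicate 5 fell inside the isotype range. Klrk1 was at 5.165, 16.2 and 31.45 CPM under isotype and 31.1, 28.04, 21.1, 27.8 and 26.3 CPM under the combination (0.62 ± 0.35, edgeR adjusted p = 0.420), with isotype replicate 5 above all combination libraries.

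Ncr1, Klrb1c and Klrg1 gave no call in B-depleted tumours. Ncr1 was at 0.365, 0.903 and 3.145 CPM under isotype and at 1.37, 1.23, 0.744, 1.14 and 0.286 CPM under the combination, a difference of -0.46 ± 0.71 (edgeR adjusted p = 0.795). Klrb1c was at 0.209, 0.903 and 3.26 CPM under isotype and 1.79, 2.16, 0.819, 1.30 and 1.14 CPM under the combination (0.35 ± 0.60, edgeR adjusted p = 0.817). Klrg1 was at 0.887, 1.59 and 4.67 CPM under isotype and 1.26, 1.39, 0.670, 0.244 and 0.643 CPM under the combination. In 3 of the 5 combination libraries Klrg1 lay below all isotype libraries, and its difference was -1.36 ± 0.48 (edgeR adjusted p = 0.207).

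Without B-depleted isotype replicates 3 and 5 and B-depleted combination replicate 5, a choice made after the values were seen, 4 members were called higher. They were Klrd1 (1.59 ± 0.24, edgeR adjusted p = 0.00301), Klrc1 (1.61 ± 0.22, 0.00219), Klrc2 (1.63 ± 0.29, 0.00917) and Klre1 (1.49 ± 0.28, 0.0101). Klrk1 stood at 1.18 ± 0.35 (edgeR adjusted p = 0.0951) and Ncr1 at 0.78 ± 0.76 (edgeR adjusted p = 0.678). Klrg1 moved to -0.53 ± 0.47 (edgeR adjusted p = 0.644) and Klrb1c to 1.38 ± 0.64 (edgeR adjusted p = 0.316). In the same fit 397 genes were called in place of 65, so the call rate over all genes moved as well.

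Under isotype antibody no member differed between B-depleted and WT tumours by edgeR. The 8 log2 differences lay between -0.41 (Ncr1) and 0.23 (Klre1), and 0 members had an unadjusted p under 0.05. In 0 members did the groups lie apart, as 0.178% of all genes did on the lower side and 0.283% on the higher. Over all 19061 genes 0 were called (0%), and DESeq2 called 5 genes and 0 members. The standard errors ran from 0.21 (Klrc1) to 0.65 (Ncr1), so the difference of Ncr1 is the least certain. These values depend on the low-scoring libraries named above, which hold the highest Ncr1 values of both isotype groups. Without WT isotype replicates 1 and 2 the differences reached 1.10 (Ncr1), 0.90 (Klrg1) and 0.87 (Klrb1c), and without the 3 B-depleted libraries they reached -1.41 (Ncr1) and -1.35 (Klrb1c). The directions of Ncr1, Klrb1c and other members thus turned with the libraries kept, and 0 members passed in either fit (edgeR adjusted p of 0.7155 or more).

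Under the combination the B-depleted tumours had lower receptor transcripts than the WT tumours. Of the 8 members, 5 were called lower and 0 higher by edgeR, where 13.5% of all genes tested were called lower and 29.1% in either direction. The median difference of the members was -1.07, beside 0.0034 over all genes. In 6 members every B-depleted library lay below every WT library, which 6.03% of all genes showed in that direction and 4.51% in the other. The libraries of the WT combination group are those already compared with WT isotype, so this contrast is not independent of the rise in WT tumours.

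The largest called difference was that of Ncr1, largely restricted to NK cells and other innate lymphocytes, at -2.11 ± 0.71 (edgeR adjusted p = 0.0335). Its highest B-depleted combination library (1.37 CPM) was below its lowest WT combination library (1.91 CPM). Klrc2 differed by -1.12 ± 0.33 (edgeR adjusted p = 0.0198), Klrk1 by -1.01 ± 0.36 (0.0419), Klrc1 by -0.71 ± 0.21 (0.0203) and Klrd1 by -0.68 ± 0.24 (0.0381). In these 4 genes the groups did not overlap either. Klrc1, for example, had means of 42.1 ± 9.07 in WT and 26.04 ± 3.15 CPM in B-depleted tumours (SD, n = 5 each), and Klrk1 53.6 ± 13.02 and 26.9 ± 3.68 CPM.

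Klrb1c (-1.51 ± 0.59, edgeR adjusted p = 0.0602), Klrg1 (-1.30 ± 0.50, 0.0540) and Klre1 (-0.56 ± 0.28, 0.122) did not pass. Klrg1 nonetheless had no overlap between the groups, with 2.03 ± 0.627 CPM in WT and 0.841 ± 0.474 CPM in B-depleted tumours. In Klrb1c 4 of 5 B-depleted libraries lay below all WT libraries, and replicate 2 at 2.16 CPM just reached the lowest WT library at 2.14 CPM. The calls moved with single libraries: 0 members passed without WT combination replicate 4 or without replicate 5. The counts were 2 without WT combination replicate 2 or without B-depleted combination replicate 1, 3 or 4, and 1 without B-depleted combination replicate 2. Other settings gave more calls, with 7 members lower by DESeq2, with only the 2 groups compared, without the 2 WT isotype libraries and without the 3 B-depleted libraries, and 6 by limma voom. In those 4 settings with 7 calls Klrb1c had adjusted p from 0.0162 to 0.0438 and Klrg1 from 0.0292 to 0.0416. With the Y-linked covariate 0 of the 8 passed, Ncr1 was at -0.54 and Klrk1 at -0.19 (edgeR adjusted p of all members 0.7025 or more), and 4 genes in all were called in place of 5545. All 4 Y-linked genes were themselves called lower in this comparison (median -0.81), and their part in the result cannot be told apart from that of the group.

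The difference between the antibody responses of B-depleted and WT tumours, which is the interaction term, was negative in all 8 members and passed in none by edgeR. It lay between -0.50 ± 0.33 (Klrd1) and -1.70 ± 0.96 (Ncr1), with edgeR adjusted p from 0.122 to 0.387. At an unadjusted p under 0.05 there were 3 members, Klrc2, Klrc1 and Klrg1, and DESeq2 called 0 members. Over all genes 0.0262% were called in either direction and 0.0105% on the negative side. Without WT isotype replicates 1 and 2 the interaction passed for Ncr1 (-3.22 ± 0.94, edgeR adjusted p = 0.0425) and Klrg1 (-2.21 ± 0.68, 0.0485), in a fit that called 2007 genes in place of 5. Those libraries hold the highest WT isotype values of both genes, so leaving them out makes the interaction more negative by construction. Without the 3 low-scoring B-depleted libraries, which include the highest B-depleted isotype values of both genes, the interaction was smaller and passed for no member. Ncr1 was then at -0.46 ± 0.97 (edgeR adjusted p = 0.795), Klrg1 at -0.69, Klrb1c at -0.10 and Klrd1 at -0.17. With the Y-linked covariate it ran from -0.54 (Klrg1) to 0.36 (Klrb1c), and Klrd1 (0.10) and Ncr1 (0.19) also turned positive.

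**Figure D2:**
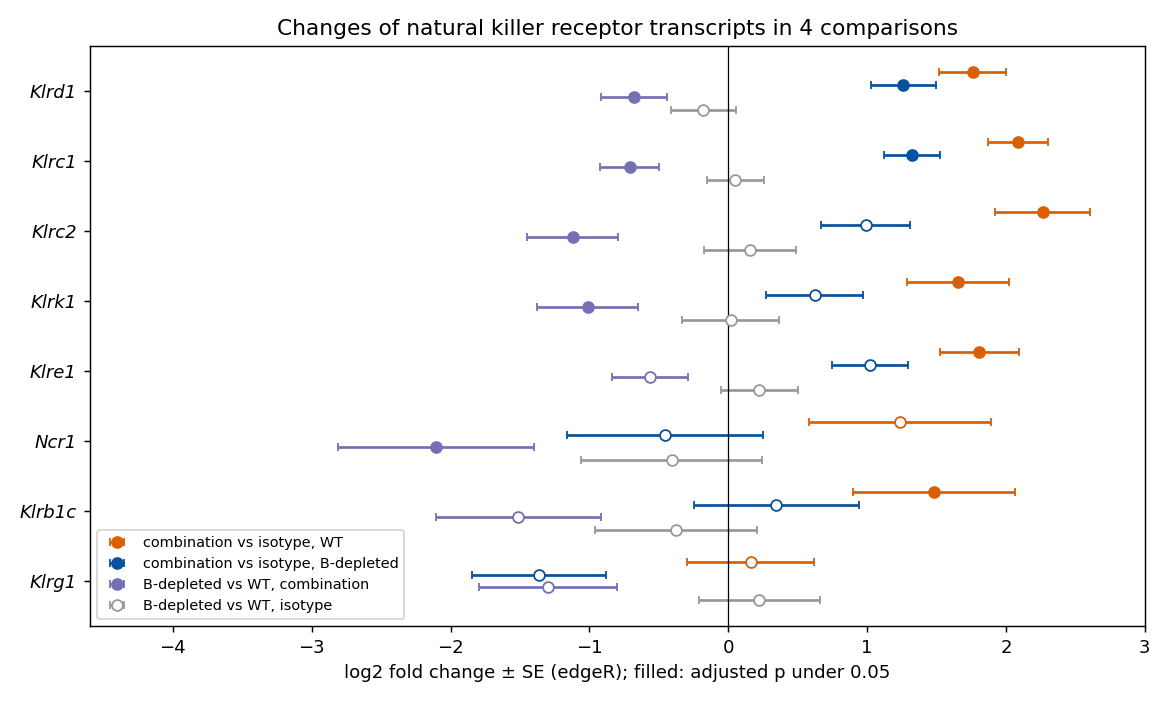
Log2 fold changes with SE from edgeR for the 8 receptor genes in the WT and B-depleted antibody comparisons and in the B-depleted against WT comparisons; filled symbols have an adjusted p under 0.05. The WT response is above 0 in all 8 genes, the B-depleted response is filled only for Klrd1 and Klrc1, and the difference under the combination is below 0 in all 8 genes.

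Ratios within a library ask whether receptors moved unequally, since the total amount of lymphocyte RNA cancels in part. The log2 ratio of Klrc1 to Klrc2, the inhibitory over the activating partner of CD94, was 1.77 ± 0.31 in WT isotype, 1.56 ± 0.15 in WT combination, 1.71 ± 0.41 in B-depleted isotype and 1.94 ± 0.17 in B-depleted combination (SD). It was higher by 0.38 in B-depleted than in WT combination tumours (exact two-sided permutation test, p = 0.0159, adjusted over 12 ratio tests 0.0476). The WT combination libraries ran from 1.41 to 1.75 and the B-depleted ones from 1.67 to 2.10, so the groups overlapped. The other comparisons of this ratio had exact permutation adjusted p from 0.460 to 0.889.

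NKG2D was set against Cd8a, the CD8 T-cell coreceptor. The log2 ratio of Klrk1 to Cd8a was -0.68 ± 0.68 in WT isotype, -0.95 ± 0.29 in WT combination, -0.62 ± 0.46 in B-depleted isotype and -1.36 ± 0.11 in B-depleted combination. In B-depleted tumours it was lower by 0.74 under the combination than under isotype, with every combination library (at most -1.19) below every isotype library (at least -1.15). That is the smallest p that 5 against 6 libraries allow (exact permutation p = 0.00433, adjusted 0.0476). Under the combination it was lower by 0.41 in B-depleted than in WT tumours (exact permutation p = 0.0159, adjusted 0.0476). Cd8a itself had means of 26.2 (isotype) and 102.5 CPM (combination) in WT and of 25.3 and 68.5 CPM in B-depleted tumours.

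Ncr1 was set against Cd3e, a chain of the T-cell receptor complex. The log2 ratio was -4.74 ± 1.55 in WT isotype, -4.86 ± 0.71 in WT combination, -4.57 ± 0.75 in B-depleted isotype and -6.05 ± 0.88 in B-depleted combination. In B-depleted tumours it was lower by 1.47 under the combination than under isotype (exact permutation p = 0.00866, adjusted 0.0476). In WT tumours the ratio did not differ between treatments by this test (difference -0.11, exact permutation adjusted p = 0.889). Between B-depleted and WT combination tumours the difference was -1.19 (exact permutation p = 0.0397, adjusted 0.0952). The lowest value, -7.55 in B-depleted combination, came from 4 counts of Ncr1.

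The adjusted p of the 4 called ratio differences lies just under 0.05, and with fewer libraries the smallest p that the test allows also rises. Leaving out any 1 of the 5 B-depleted combination libraries lifted each of the 4 over 0.05, with adjusted p up to 0.0952.

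**Figure D3:**
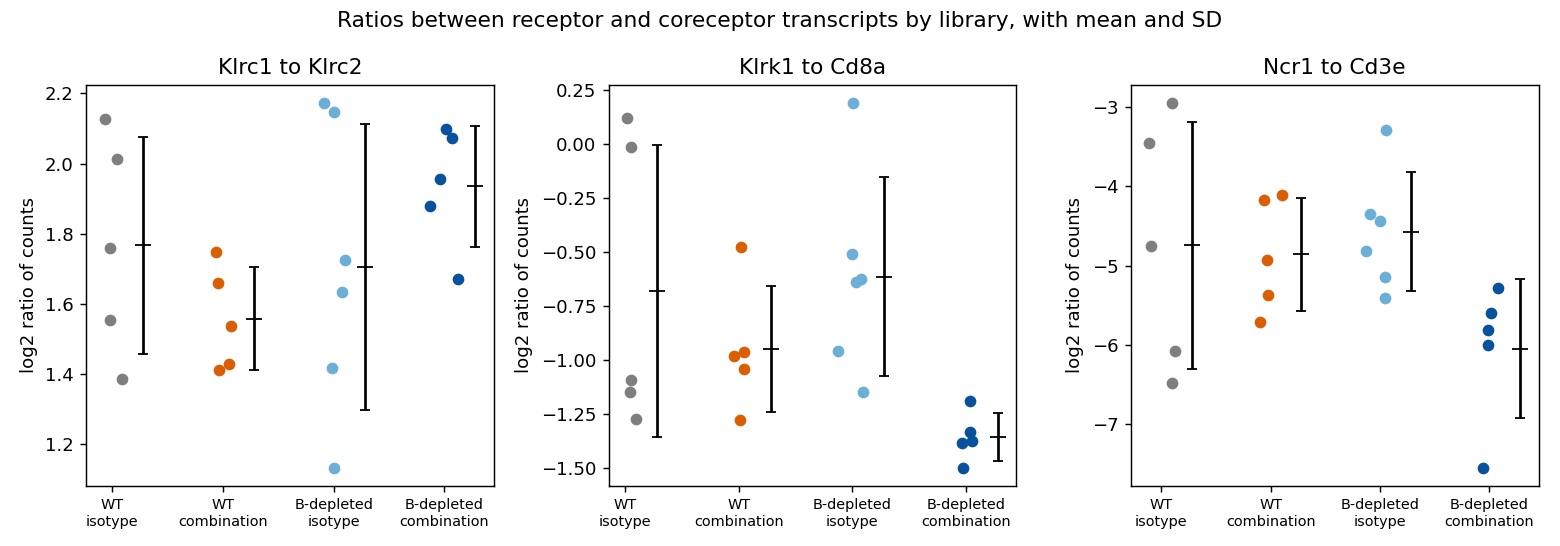
Log2 ratios of CPM of Klrc1 to Klrc2, Klrk1 to Cd8a and Ncr1 to Cd3e, 1 point per library, by group with mean and SD. The B-depleted combination group has the highest mean for Klrc1 to Klrc2 (1.94) and the lowest means for Klrk1 to Cd8a (-1.36) and Ncr1 to Cd3e (-6.05).

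The members differed in how closely they followed T-cell transcripts over the 21 libraries. On log2 CPM, Klrd1 tracked Cd3e with Pearson r = 0.98 and Spearman rho = 0.983, and with r = 0.912 for the deviations from the 4 group means. Klrc1 (r = 0.964), Klrc2 (0.954), Klre1 (0.942) and Klrk1 (0.931) came next. Klrb1c (r = 0.779), Ncr1 (0.635) and Klrg1 (0.156) tracked Cd3e less closely over all libraries. For the deviations from the group means their r was 0.636, 0.643 and 0.645, so the low value of Klrg1 holds only over all libraries. Without the 2 libraries farthest from the median of Cd3e the values were 0.972 for Klrd1, 0.546 for Ncr1 and 0.019 for Klrg1. These are descriptions, since all points share the 4 group means. The low counts of Ncr1, Klrb1c and Klrg1 can lower a correlation, and their part here was not tested.

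The genes most like Ncr1 over the 21 libraries, by Pearson r of log2 CPM, were Tlr11 (0.924), Trim34a (0.917), Ifit3 (0.915), Ccl22 (0.903) and Zup1 (0.902). Those most like Klrk1 were Tmem229b (0.983), the class II MHC gene H2-Aa (0.982), the death ligand gene Tnfsf10 (0.980) and the class II MHC genes H2-Eb1 (0.980) and H2-Ab1 (0.980). Within groups these values were 0.860 to 0.897 for Ncr1 and 0.957 to 0.968 for Klrk1. Among the members, Ncr1 was most like Klrb1c (r = 0.866) and Klrd1 most like Klrc1 (r = 0.978).

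**Figure D4:**
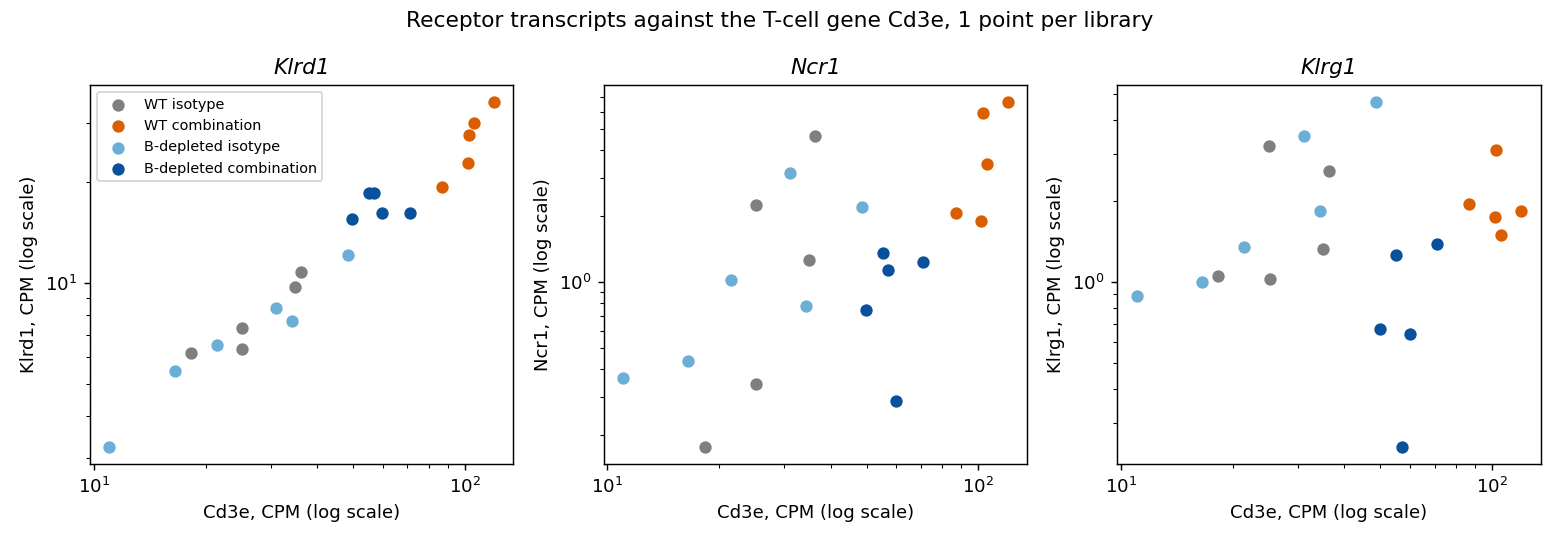
CPM of Klrd1, Ncr1 and Klrg1 (vertical axes, log scale) against CPM of Cd3e (horizontal axes, log scale), 1 point per library, coloured by group. Klrd1 lies close to a line over all 21 libraries (r = 0.98), while Ncr1 (0.635) and Klrg1 (0.156) scatter, although within groups their r was 0.643 and 0.645.

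Most signalling partners of the receptors rose in WT tumours. The counts of this list and those below stand beside 25.0% of all genes called higher and 25.0% lower in WT tumours. These shares were 0.304% and 0.0367% in B-depleted tumours, and 15.5% and 13.5% for B-depleted against WT combination tumours. Of 14 adaptor and proximal signalling genes, 13 rose and 0 fell in WT tumours under the combination by edgeR (median 1.47), 0 passed in B-depleted tumours (median 0.68), and 11 were lower in B-depleted than in WT combination tumours (median -0.80). Hcst, which encodes the NKG2D adaptor DAP10, went from 1.79 ± 0.482 to 6.33 ± 1.42 CPM in WT tumours (log2 fold change 1.84 ± 0.26). In B-depleted tumours it was at 1.93 ± 0.817 and 3.61 ± 0.513 CPM, a difference that did not pass (0.94 ± 0.25, edgeR adjusted p = 0.0970). Zap70 (1.57), Ptpn6 (0.89) and Lat2 (1.45) were the other called genes of smallest p in WT tumours. Zap70 is the kinase recruited by T-cell and NK-receptor chains, and Ptpn6 encodes the phosphatase SHP-1, through which inhibitory receptors act.

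Of 14 listed ligand genes 10 matched and 7 were tested, and these did not move as a block. In WT tumours 3 rose and 2 fell by edgeR, where 25.0% of all genes tested were called higher and 25.0% lower. H2-T23, which encodes Qa-1, the ligand of CD94/NKG2A, rose from 131 ± 33.8 to 236.7 ± 17.2 CPM (0.87 ± 0.17), and Clec2d, a ligand of NKR-P1 receptors, rose by 1.24. Cdh2, the N-cadherin gene and a ligand of KLRG1, fell by 1.60 on the log2 scale, and H60b, a ligand of NKG2D, fell by 1.11. In B-depleted tumours none of the 7 passed. Raet1e, a ligand of NKG2D, was at 1.24 there, and H2-T23 was at 137 ± 31.7 and 171 ± 26.2 CPM (0.33 ± 0.16, edgeR adjusted p = 0.350). Under the combination, H2-T23 (-0.49) and Clec2d (-0.94) were lower and H60b (0.86) and Cdh2 (1.04) higher in B-depleted than in WT tumours, all 4 called.

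Of the related lectin receptors of the NK gene complex, most did not pass in WT tumours. From 22 listed 21 matched and 15 were tested, and 5 rose and 1 fell there (median 0.90). Over all genes tested 25.0% were called higher and 25.0% lower. Klrb1f (2.32), Klri2 (1.73) and Klra2 (0.58) rose, and Klra17 fell by 1.19 on the log2 scale. None passed in B-depleted tumours (median -0.33), where Klri1 was at -1.11 and Klri2 at 0.62. Under the combination 4 were lower in B-depleted than in WT tumours, namely Klrb1f (-1.82), Klra9 (-2.63), Klra14-ps (-2.84) and Klri2 (-0.82). The share called lower over all genes was 13.5%. Ly49 genes (the Klra family) are near copies of each other, and their counts are uncertain for the same reason as those of Klrc1 and Klrc2.

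Other lymphocyte receptors and regulators known from NK cells mostly rose in WT tumours. Of 12 other NK activating and inhibitory receptors, 10 rose in WT tumours (median 1.85), among them Slamf7 (2.52), Cd226 (2.23), Cd27 (2.20) and Ly9 (1.85). None of the 12 passed in B-depleted tumours (median 0.66), where Crtam was at 1.35 and Cd96 at 0.94, and 7 were lower in B-depleted than in WT combination tumours, among them Slamf6 (-1.48) and Slamf7 (-1.40). Of 12 transcription factors, 7 rose and 1 fell in WT tumours (median 0.96), with Tbx21, which encodes T-bet, at 1.94. None of these passed in B-depleted tumours (median 0.48), where Ikzf3 was at 1.16 and Tbx21 at 0.97, and 8 were lower than in WT under the combination. Of 13 tested cytokine and cytokine-receptor genes that support NK cells, 13 rose in WT tumours (median 1.56), 0 passed in B-depleted tumours (median 0.65) and 8 were lower in B-depleted than in WT combination tumours (median -1.05). Il12rb2 (2.07), Il18r1 (2.04), Ccl5 (2.33) and Il2rb (1.65) were the risers of smallest p. In B-depleted tumours Il2rb, the shared receptor chain for IL-2 and IL-15, was at 1.02 ± 0.24 (edgeR adjusted p = 0.0649). Under isotype, and in the interaction, 0 genes of any of these lists were called by edgeR.

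Markers of cell types were read beside the receptors, because most of these genes are shared with T cells. All 12 T-cell markers rose in WT tumours (median 1.93) and 4 rose in B-depleted tumours (median 1.12), and 10 were lower in B-depleted than in WT combination tumours. Of 11 NK-cell markers, which include the members Ncr1 and Klrb1c, 4 rose and 1 fell in WT tumours. Over all genes tested 25.0% were called higher and 25.0% lower there. The risers were Prf1, Eomes, Gzma and Klrb1c. Ncr1, Klra7, Klra8, Klra4, Khdc1a and Sh2d1b1 did not pass there (edgeR adjusted p from 0.0557 to 0.258). Of the 11, 1 rose in B-depleted tumours, and 3 were lower and 1 higher in B-depleted than in WT combination tumours. The gene that rose in B-depleted tumours was Prf1, the perforin gene, which T cells also express (1.62 ± 0.19, edgeR adjusted p = 0.00117). The gene that fell in WT tumours was Itga2, which was at 186.8 ± 36.4 CPM in WT isotype and 71.2 ± 27.97 CPM in WT combination. The summed NK list ran from 183 to 270 and from 160 to 205 CPM in these groups, and Itga2 made up most of it in WT isotype but not in WT combination. Ncr1 and Klrb1c had means of 1.74 and 1.48 CPM in WT isotype, far below Itga2, so the sum says little about them. Which cells the Itga2 transcripts came from was not tested. No NK marker was at 0 in every library of a group. Of 7 tested markers of ILC1 and innate-like T cells, 5 rose and 1 fell in WT tumours, 0 passed in B-depleted tumours and 4 were lower in B-depleted than in WT combination tumours. The 6 B-cell markers rose in WT tumours (median 2.07), 0 passed in B-depleted tumours, and all 6 were lower in B-depleted than in WT combination tumours (median -2.44). Macrophage markers rose as well (8 of 8, median 1.21) and hepatocyte and hepatoma markers fell (6 of 6, median -2.48) in WT tumours. The part of T cells, macrophages and tumour cells in the receptor values was not tested.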

How the data were processed

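The authors' deposited table held raw read counts, whole numbers with unequal column totals, for 55487 Ensembl identifiers in 21 libraries made with a stranded mRNA kit, per the labels. The submitters' processing notes name the genome GRCm38 with STAR 2.7.2a and cutadapt 2.4. How reads were counted (program, strand setting, annotation) is not given in the sources used here. Symbols and exon lengths came from GENCODE M21, which matched 55141 identifiers. Klrb1c shares 413 exonic bases with Gm44511, which had 0 counts.

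Totals ran from 9.52 to 19.17 M. The 45 within-group pairs of libraries correlated at 0.943 to 0.988, and none agreed within sampling noise (lowest chi-square per degree of freedom 7.62). Counts were fitted in R 4.3.3 with edgeR 4.0.16 (robust quasi-likelihood test, TMM factors 0.953 to 1.029, filterByExpr by group) on all 21 libraries in 1 model of 4 group means, and p-values were adjusted by Benjamini-Hochberg over 19061 genes at 0.05. The scripts were tested on simulated data. CPM uses library totals. Log2 ratios added 0.5 counts to each gene and were compared by exact two-sided permutation of group means, which gives at least p = 0.0079 for 5 against 5 libraries and 0.0043 for 5 against 6, adjusted over 12 tests. Correlations used log2 CPM with a prior count of 2.

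All 8 members were named. Of other lists, up to 4 called genes of smallest p were named, or up to 2 as values where none passed, and for Ncr1 and Klrk1 the 5 most alike genes with a mean of at least 1 CPM. Markers and genes named beyond that were chosen after their values were seen. The members and lists were chosen with earlier results of these data known. Alternatives were DESeq2 1.42.0, limma 3.58.1 (voom), other size factors, no filter, thinning, a Y-linked covariate, replicate blocks, fewer groups and libraries left out.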

Additional observations from a re-analysis of the deposited data

Results flagged for a closer look

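Of 32 combinations of a receptor gene and a group, 2 held a library far from the others, and chance gives about 1 in 20. Klrb1c was highest in B-depleted isotype replicate 5 at 3.26 CPM, and its gap to the next library was 0.649 of the range of the group. Klrg1 was highest in WT combination replicate 2 at 3.11 CPM, with a gap of 0.720 of the range. The B-depleted library is one of those named above for a low score on the first principal component.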

How the results depend on the processing

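The number of members called was 6 in WT tumours, and 5 to 7 when 1 library was left out. With limma voom, or without WT isotype replicates 1 and 2, it was 7, as Ncr1 passed too. Without a filter it was 5, as Klrb1c did not pass (edgeR adjusted p = 0.0931). With the Y-linked covariate it was 1, and Klrb1c turned to -0.50 (edgeR adjusted p = 0.885). In B-depleted tumours the 2 calls became 1 with the Y-linked covariate, 4 without 3 B-depleted libraries and 0 with only the 2 groups compared. They became 3 with DESeq2, where Klre1 passed too (DESeq2 adjusted p = 0.0205), and 1 to 3 when 1 library was left out. Under the combination the 5 lower calls became 2 without a filter, where 39551 genes were tested, 0 with the Y-linked covariate, 7 with DESeq2, the 2 groups alone or either set of libraries left out, and 0 to 7 when 1 library was left out. The interaction went from 0 to 2 without WT isotype replicates 1 and 2. The causes were not tested. Replicate numbers did not pair libraries by the data (median r = 0.0278 for title numbers, -0.0287 for description numbers). A replicate block by title number gave 2 calls in B-depleted tumours and 7 under the combination, and a block by description number gave 1 and 3.

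Leaving out 1 library moved the called ratio differences over these ranges: Klrc1 to Klrc2 0.34 to 0.44 and Klrk1 to Cd8a -0.49 to -0.29 between B-depleted and WT combination tumours, and Klrk1 to Cd8a -0.85 to -0.58 and Ncr1 to Cd3e -1.66 to -1.10 between treatments in B-depleted tumours. A prior of 2 counts changed no ratio call. Over all genes, the 9529 calls in WT tumours became 77 with the Y-linked covariate. The 65 in B-depleted tumours became 31 with that covariate, 388 with DESeq2, 102 with voom, 35 without a filter, 6 with only the 2 groups, 33 and 14 with the blocks, 397 without 3 libraries and 40 without 2 WT isotype libraries. The 5545 under the combination became 4 with the covariate and 3343 without a filter. Under isotype 0 became 16 with the covariate, 5 with DESeq2, 25 without 2 WT isotype libraries and 1 with either block or without a filter, and the 5 of the interaction became 0 with the covariate or the title block, 1181 with DESeq2, 2007 without 2 WT isotype libraries and 1 without 3 B-depleted libraries. With 1 library left out these counts ran from 7691 to 10240 (WT), 11 to 176 (B-depleted), 0 to 2 (isotype), 2182 to 7606 (combination) and 0 to 1540 (interaction). Depth limits Klrg1, Ncr1 and Klrb1c most.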
